A study of Mus musculus with 9 samples.

Results

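Kidneys of wild-type (WT) mice with acute kidney injury (AKI) that had received vesicles prepared from milk and loaded with siRNA to PTP1B were compared with kidneys of injured mice that had received phosphate-buffered saline (PBS). The comparison uses 6 of the 9 RNA sequencing libraries of the study: 3 labelled PTPi@mEVs by treatment, called the vesicle group here, and 3 labelled PBS after AKI, called the saline group. Both groups share the WT genotype, the tissue and the injury. The remaining 3 libraries come from mice operated on without ischemia-reperfusion (IR) injury and given PBS. This sham group entered the fit so that all 3 groups shared 1 estimate of the spread, and its levels are given as a reference only. The libraries hold no injured group given empty vesicles or vesicles with a control siRNA, so effects of the siRNA, the vesicles and the injection cannot be told apart. The labels give no age, dose, time after injury, time of collection or batch, and differences in these cannot be told apart from the treatment. In the title of 1 vesicle library the name reads PTP@mEVs, and its group was read from the treatment label. The labels do not tie libraries to individual animals, and the p-values therefore reflect only how far these samples spread, which may be technical.

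PTP1B, encoded by Ptpn1, is a tyrosine phosphatase anchored to the endoplasmic reticulum. It removes phosphate from the insulin receptor, the leptin receptor kinase JAK2 and several growth factor receptors, and so dampens their signals. In ischemic kidney injury the proximal tubule, which depends on fatty acid oxidation and reabsorbs most of the filtrate, loses its transporters and turns on injury genes, and surviving tubule cells can later re-enter the cell cycle.

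The libraries held 9467851 to 11389479 counts each, and 17036 genes passed the filter on low counts. Levels are given as CPM, the counts of a gene relative to the library's total, with a trimmed mean (TMM) scaling factor, always in the order of replicates 1, 2 and 3. CPM is not scaled by transcript length, so it compares 1 gene across libraries and not genes with each other. Differences are log2 fold changes, vesicle minus saline, ± standard error (SE), with n = 3 per group. Where a gene has 2 sets of 3 levels with no group named, the first is saline and the second vesicle, and a value in parentheses after a gene is its log2 fold change. A gene was called where edgeR's quasi-likelihood test gave a Benjamini-Hochberg adjusted p under 0.05 over all genes tested. Of the 17036 genes, 4320 were called higher with the vesicles (25.4%) and 4391 lower (25.8%), together 51.1%. At least 2-fold differences were called for 2282 genes in the higher and 2288 in the lower direction, 13.4% each. The median log2 fold change over all genes was -0.03, with quartiles at -0.61 and 0.59. Where library totals replaced the TMM factors, this median shifted by -0.11. Since so many genes were called, a count in a gene list is read against these shares.

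**Figure D1:**
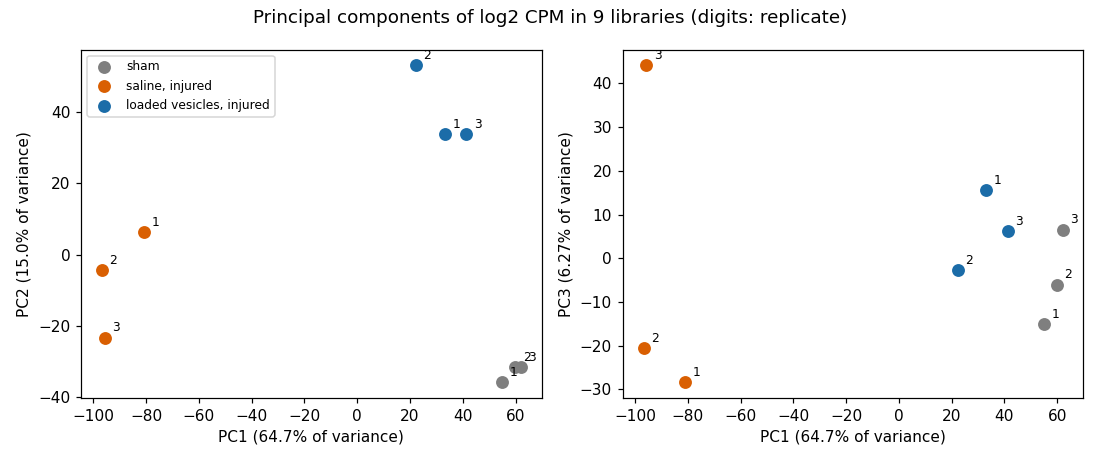
Each point is 1 of the 9 libraries, placed by principal components of log2 CPM, with the replicate number beside it; the axes carry the percent of variance. The saline libraries lie at -80.9 to -96.7 on the first component, and the vesicle libraries lie at 22.2 to 41.3, on the side of the sham libraries. On the second component the vesicle libraries lie at 33.7 to 53.1 and the sham libraries at -31.7 to -35.8.

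Along the first principal component, with 64.7% of the variance, lay the main separation. It placed the 3 saline libraries away from the vesicle libraries. The second held 15.0% and placed the vesicle libraries away from sham. Replicate 3 of the saline group stood apart on the third component (6.27% of the variance), at 44.1 against -28.3 and -20.6 for its partners. Mitochondrially encoded genes took 2.23% ± 0.199 of the counts in the saline group and 1.32% ± 0.0835 in the vesicle group (SD, n = 3). The nuclear transcripts Malat1 and Neat1 together took 0.864% ± 0.157 and 0.327% ± 0.00822 (SD, n = 3). These shares moved with the groups, and their part in the differences described here was not tested. In whole tissue, fewer cells of a type and less RNA per cell cannot be told apart.

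The gene targeted by the siRNA was examined first. Ptpn1 had 123, 148 and 170.4 CPM in the saline libraries and 106, 106 and 93.98 CPM in the vesicle libraries. Every vesicle library lay below every saline library, by 45.1 CPM or 30.7% on average (log2 fold change -0.53 ± 0.14, edgeR adjusted p = 0.00862). Such a lack of overlap was common. It held for 29.2% of all genes tested on the lower side and 28.7% on the higher side. The sham libraries held 80.9, 90.5 and 98.8 CPM. A two-sided exact permutation test of the CPM values gave p = 0.1, the smallest that 3 against 3 libraries allow.

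**Figure D2:**
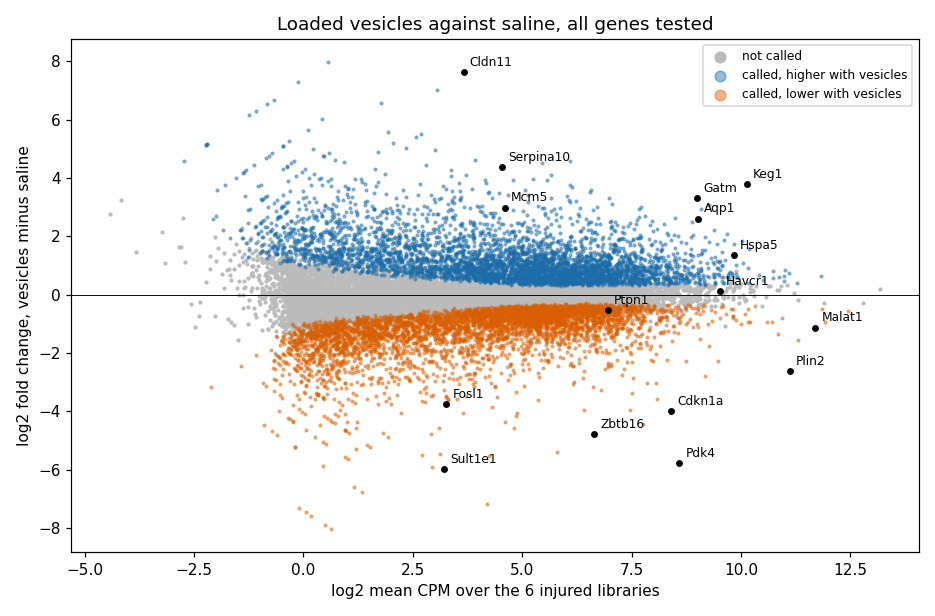
Each dot is a gene: the horizontal axis is the log2 of its mean CPM over the 6 injured libraries, the vertical axis the log2 fold change, vesicle minus saline. Blue dots were called higher (4320) and orange dots called lower (4391); Ptpn1, at -0.53, sits among many larger differences.

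Rises and falls were ranked among called genes above a mean log2 CPM of 3 whose groups did not overlap. Gene models named Gm or Rik and genes without a symbol were left out. The largest rise was in Cldn11, a claudin of tight junctions. The saline libraries held 1, 1 and 2 reads of it and the vesicle libraries 366, 181 and 203 reads. The pooled ratio was 222, with a 95% exact interval of 86.5 to 818 that covers counting error only. Prss35, a secreted serine protease homologue, had 0, 2 and 2 reads with saline and 103, 48 and 316 reads with the vesicles. Its pooled ratio was 138 (95% exact interval 53.7 to 510, counting error only). Both genes were expressed in sham, Cldn11 at 12.2, 18.3 and 11.6 CPM and Prss35 at 9.90, 13.5 and 4.37 CPM. With so few reads in saline, they passed the filter on low counts through the vesicle and sham groups.

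Serpina10, an inhibitor of coagulation proteases, behaved otherwise with respect to sham. It had 2.94, 2.06 and 1.32 CPM with saline, 23.8, 77.6 and 31.1 CPM with the vesicles and 1.47, 1.02 and 1.22 CPM in sham (log2 fold change 4.38 ± 0.45, edgeR adjusted p = 1.41e-05; 3.71 without replicate 2 of the vesicle group). All 3 vesicle libraries thus lay above all 6 others. The same held for 1180 of the 4320 genes called higher, and for 812 of the 4391 called lower the vesicle libraries lay below all 6 others. Aqp4, a basolateral water channel, had 8.56, 5.06 and 2.92 CPM with saline and 145, 86.2 and 54.2 CPM with the vesicles (log2 fold change 4.11 ± 0.44), with sham at 112, 74.96 and 68.3 CPM. Further large rises were found for Aldh1a3, a retinaldehyde dehydrogenase (4.33 ± 0.33), Sptssb, a subunit of serine palmitoyltransferase (4.29 ± 0.64), Prok1, which encodes prokineticin 1 (4.10 ± 0.46), and Alx1, a homeobox factor (4.07 ± 0.59). Without replicate 1 of the saline group Sptssb was at 5.49, and without replicate 2 of that group Alx1 was at 4.98.

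The largest falls included enzymes of steroid and fuel handling. Sult1e1, the estrogen sulfotransferase, had 22.6, 12.6 and 19.4 CPM with saline and 0.183, 0.546 and 0.110 CPM with the vesicles (-5.99 ± 0.44; -6.80 without replicate 2 of the vesicle group). Pdk4, a kinase that blocks the entry of pyruvate into the citric acid cycle, had 506, 356 and 1409 CPM with saline and 13.4, 16.4 and 11.98 CPM with the vesicles. The saline libraries, with replicate 3 the highest, lay far above the vesicle libraries (log2 fold change -5.76 ± 0.50, edgeR adjusted p = 8.22e-06), and without that replicate the difference was -4.95. Its sham level, 18.3, 13.8 and 19.2 CPM, was close to that of the vesicle group. Zbtb16, a zinc finger factor induced by glucocorticoids, had 159.7, 182 and 239 CPM with saline and 4.96, 12.6 and 3.63 CPM with the vesicles (-4.79 ± 0.39; -5.46 without replicate 2 of the vesicle group). The ubiquitin ligase Rnf125 fell by 4.55 on the log2 scale. The alcohol dehydrogenase Adh6a fell by 5.53 (-4.73 without replicate 3 of the saline group), and the peptidase inhibitor Pi15 by 5.47 (-7.11 without replicate 1 of the vesicle group). Slc6a19os, which lies antisense to the amino acid transporter Slc6a19, fell by 5.38, and Olfr920, an olfactory receptor gene, fell by 4.55. Since the strand setting of the counting is not given in the sources used here, reads of Slc6a19os could not be told apart from those of overlapping genes, and Olfr920 belongs to a family of close copies.

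In absolute CPM the largest gain was that of Keg1, a kidney gene of the glycine N-acyltransferase family. It had 89.7, 171 and 190.3 CPM with saline and 2154, 2066 and 2110 CPM with the vesicles (log2 fold change 3.81 ± 0.26, edgeR adjusted p = 9.68e-07). The vesicle libraries lay close together and inside the sham range of 1775, 1868 and 2559 CPM. Cyp4a10, a fatty acid omega-hydroxylase, had 568, 292 and 507 CPM with saline and 1358, 1455 and 2108 CPM with the vesicles (1.85 ± 0.25), above the 969, 705 and 682 CPM of sham. Reads of Cyp4a10 can be split with its near-identical neighbours in the Cyp4a cluster. Slc22a6, the organic anion transporter OAT1, had 436, 408 and 924 CPM with saline and 1892, 1576 and 1760 CPM with the vesicles (1.56 ± 0.29). Cyp4b1 (0.84 ± 0.25) and Slc34a1 (0.76 ± 0.22), the main phosphate transporter, were also among the 6 largest gains. The calls of Cyp4b1 and Slc34a1 depended on single libraries: Cyp4b1 was not called without replicate 1 or 2 of the saline group (0.70 and 0.67), nor Slc34a1 without replicate 2 of the saline group (0.62) or replicate 3 of the vesicle group (0.57).

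The largest loss was that of Plin2, which coats lipid droplets. It had 3831, 3453 and 4135 CPM with saline, 498, 876 and 480 CPM with the vesicles and 198, 234 and 275 CPM in sham (log2 fold change -2.62 ± 0.23, edgeR adjusted p = 3.43e-06). The vesicle libraries lay below the saline libraries and still above sham. Ndrg1, a stress- and hypoxia-responsive gene, had 2295, 2476 and 3158 CPM with saline and 828, 993 and 1301 CPM with the vesicles (-1.34 ± 0.19). The nuclear RNAs Neat1 (-1.55 ± 0.23) and Malat1 (-1.12 ± 0.15) and the mitochondrial ribosomal RNA mt-Rnr2 (-0.93 ± 0.19) also fell. The unnamed gene ENSMUSG00000119584 was lower by 0.56 on the log2 scale, a call that was lost without replicate 2 of the saline group (-0.38) and without replicate 1 or 2 of the vesicle group (-0.49 and -0.48).

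**Figure D3:**
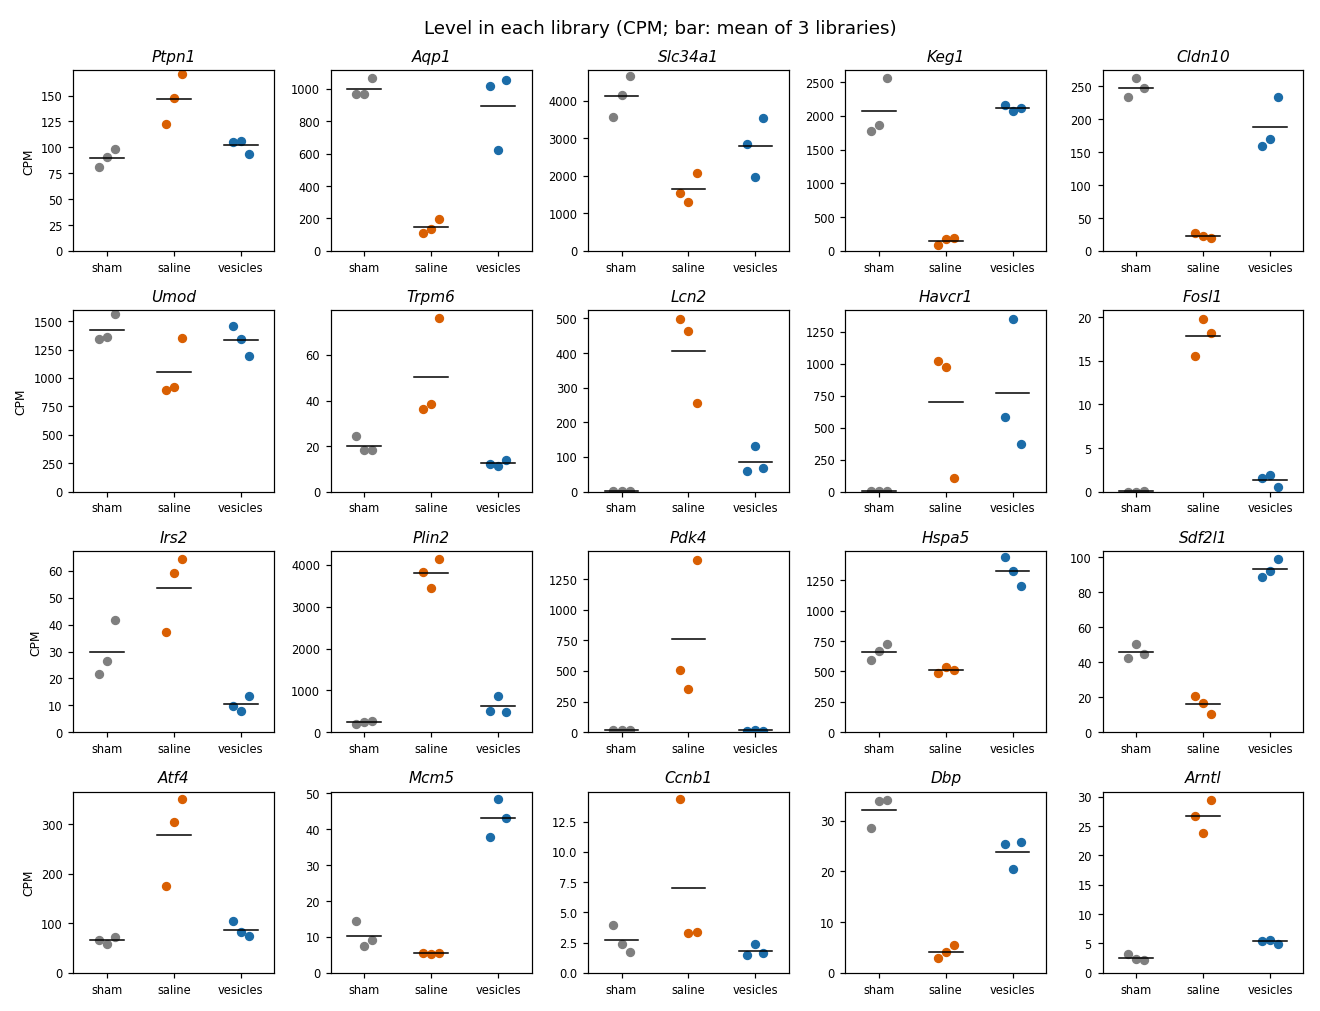
CPM of 20 genes in each library, by group (sham, saline, vesicles); points are libraries and bars the mean of 3. The vesicle points lie nearer to sham than to saline for Keg1, Pdk4 and Dbp, above both other groups for Hspa5, Sdf2l1 and Mcm5, and overlap the saline points for Umod and Havcr1.

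Nephron genes were described by segment, and the kidney-defining Umod and Slc34a1 were abundant in all 9 libraries. Of 35 proximal tubule transporters and endocytic receptors, 27 were called higher (77.1%) and 1 lower, with a median log2 fold change of 1.20. Lrp2, the endocytic receptor megalin, had 350.5, 272 and 348 CPM with saline and 1099, 866 and 1276 CPM with the vesicles (log2 fold change 1.74 ± 0.17, edgeR adjusted p = 7.47e-06). The glucose transporter Slc2a2 had 35.1, 20.4 and 13.7 CPM with saline and 193, 244 and 254 CPM with the vesicles (3.32 ± 0.27). For both genes the groups did not overlap. The water channel Aqp1 rose by 2.61 ± 0.24, the sodium-glucose transporter Slc5a1 by 2.44 ± 0.20 and the lactate transporter Slc5a12 by 2.91 ± 0.37. Slc13a1, the sulfate transporter of the apical membrane, had 167, 98.4 and 122 CPM with saline, 803, 1490 and 1000 CPM with the vesicles and 359, 350.5 and 325 CPM in sham (3.09 ± 0.24). Its vesicle level exceeded sham in every library. Slc5a2, the glucose transporter targeted by gliflozin drugs, had 587, 302 and 474 CPM and 439.6, 465 and 829.8 CPM, overlapping ranges with no call (edgeR adjusted p = 0.276).

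The straight segment, S3, is the part most exposed to ischemia. Of its 14 listed genes 10 were called higher and 1 lower (median 1.26), yet their summed level stayed short of sham: 1900, 2320 and 2380 CPM with saline, 3630, 3280 and 3260 CPM with the vesicles, and 5470, 6230 and 7940 CPM in sham. Slc22a13, a urate and organic anion transporter, had 17.1, 15.5 and 13.2 CPM with saline, 77.7, 62.2 and 64.2 CPM with the vesicles and 183, 153 and 176 CPM in sham (2.15 ± 0.15). Slc7a13, an amino acid transporter of this segment, had 44.7, 54.2 and 121 CPM and 242, 92.1 and 163 CPM, with overlapping groups (log2 fold change 1.18 ± 0.41, edgeR adjusted p = 0.0341). Its call was lost without replicate 1 or 2 of the saline group (0.93 and 1.0) and without replicate 1 or 3 of the vesicle group (0.81 and 1.21). The early segments summed to 3280, 2200 and 3590 CPM with saline and 5620, 5890 and 7420 CPM with the vesicles, against 5080, 5710 and 5500 CPM in sham, with 9 of 13 genes called higher. Among 14 transcriptional regulators of the proximal tubule 9 were called higher and 1 lower. They included the estrogen-related receptors Esrra (1.34 ± 0.17) and Esrrg (1.30 ± 0.16), which drive mitochondrial genes, and Tfec (1.92 ± 0.20).

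In the thick ascending limb 11 of 17 genes were called higher and 2 lower (median 0.85). Cldn10, a claudin gene counted here over all its isoforms, had 26.8, 22.9 and 20.3 CPM with saline and 159, 170.2 and 234 CPM with the vesicles (log2 fold change 3.01 ± 0.18, edgeR adjusted p = 3.07e-07). Kcnj1, the potassium channel ROMK, had 42.9, 40.1 and 50.02 CPM and 260.3, 203 and 193 CPM (2.30 ± 0.15), and Bsnd, the barttin subunit of chloride channels, rose by 2.44 ± 0.21. Slc12a1, the cotransporter blocked by furosemide, had 61.7, 97.6 and 142 CPM with saline, 255, 153 and 204 CPM with the vesicles and 632, 426 and 540.4 CPM in sham (1.02 ± 0.27), so every vesicle library remained below every sham library. Umod, encoding uromodulin, had 893, 921 and 1348 CPM and 1461, 1344 and 1193 CPM and was not called (edgeR adjusted p = 0.118); it was called without replicate 3 of the saline group (0.56).

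Further along the tubule the direction was mixed. Of 14 genes of the distal convoluted and connecting tubule 6 were called higher and 5 lower (median -0.26). Trpm6, the magnesium channel, had 36.1, 38.5 and 76.3 CPM with saline, 12.3, 11.3 and 13.96 CPM with the vesicles and 24.3, 18.1 and 18.2 CPM in sham (log2 fold change -2.0 ± 0.27, edgeR adjusted p = 6.86e-05). The protease Klk1 had 1312, 1358 and 1451 CPM with saline and 589, 735 and 723 CPM with the vesicles (-1.01 ± 0.14). Both lay below sham as well, where Klk1 had 1193, 1266 and 1105 CPM. Klhl3, an adaptor that targets WNK kinases for degradation, rose by 1.44 ± 0.18, whereas the thiazide-sensitive cotransporter Slc12a3 had 346, 295 and 524 CPM and 351, 294 and 328 CPM and was not called.

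In collecting duct principal cells 8 of 15 genes were called higher and 3 lower. Aqp2, the vasopressin-regulated water channel, had 579, 387 and 1063 CPM with saline and 1460, 1482 and 1340 CPM with the vesicles (1.08 ± 0.30). The transcription factor Elf5 had 1.38, 1.03 and 0.707 CPM and 14.1, 10.4 and 8.90 CPM (3.41 ± 0.33). Scnn1a, the alpha subunit of the epithelial sodium channel, went the other way, with 126, 147 and 266 CPM and 87.7, 52.7 and 85.5 CPM (-1.25 ± 0.27). Intercalated cells had 5 of 16 genes higher (31.2%) and 3 lower (18.8%), near the shares over all genes tested. Among them were the ammonia channel Rhcg (1.58 ± 0.16) and the bicarbonate cotransporter Slc4a9 (-0.92 ± 0.17). Podocyte genes were mostly on the lower side, 8 lower and 2 higher of 15. Wt1, the podocyte transcription factor, had 36.05, 32.4 and 32.3 CPM with saline and 16.4, 16.5 and 16.7 CPM with the vesicles (-1.02 ± 0.15), with sham at 17.7, 16.6 and 13.2 CPM. Nphs1, encoding nephrin, was not called (-0.15), and Clic3 rose (2.02 ± 0.47).

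The urothelium lines the renal pelvis, and 10 of its 11 listed genes were tested. Some of them passed the filter on low counts through the vesicle and sham groups. Gsdmc2 was such a gene, with 6, 0 and 4 reads with saline and 170, 53 and 76 reads with the vesicles. No count over the list is therefore given as support. The uroplakin Upk3b had 3.11, 2.23 and 1.06 CPM with saline and 45.5, 16.8 and 17.9 CPM with the vesicles (3.64 ± 0.48; 3.03 without replicate 1 of the vesicle group). The list's summed level was 50.2, 14.7 and 29.1 CPM with saline, 274, 101 and 177 CPM with the vesicles and 236, 188 and 166 CPM in sham. The vesicle libraries lay on both sides of the sham libraries. How much pelvic tissue each sample held is not given in the labels.

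**Figure D4:**
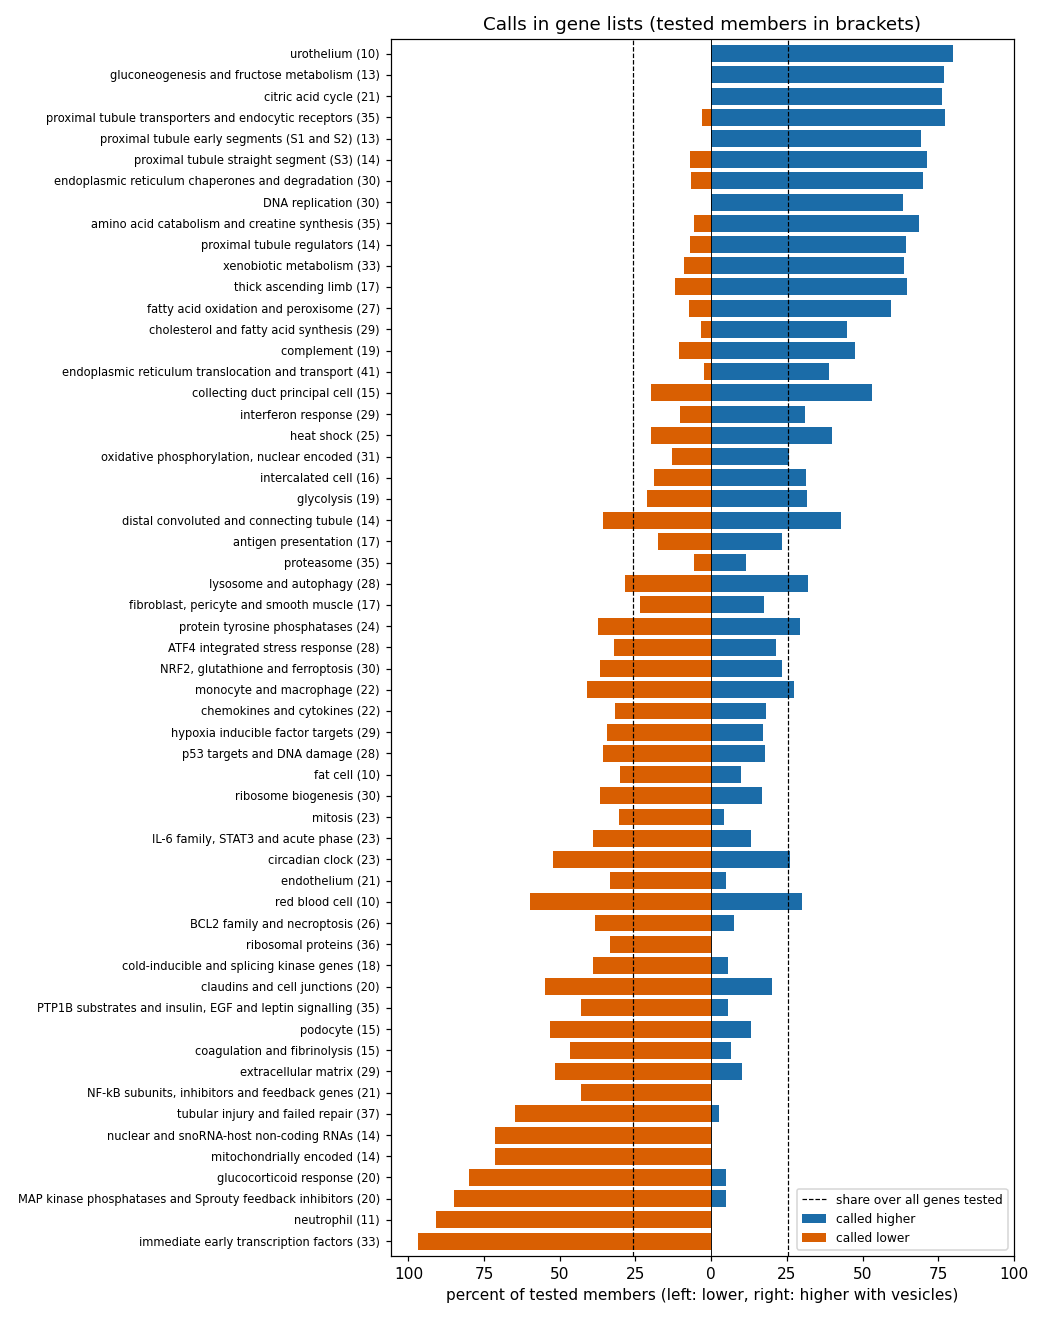
Bars give, for each gene list with at least 10 tested members, the percent of tested members called higher (right) or lower (left) with the vesicles; dashed lines mark the shares over all genes tested, 25.4% and 25.8%. Citric acid cycle and proximal tubule lists extend to the right and immediate early factors to the left. The neutrophil and urothelium bars hold genes that passed the filter on low counts through the groups where they are high. These bars are therefore not given as support.

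Injury genes fell as a list, 24 of 37 lower and 1 higher (median -0.99), with marked exceptions. Lcn2, which encodes the injury marker NGAL, had 498, 462 and 256 CPM with saline and 57.99, 131 and 68.8 CPM with the vesicles (-2.24 ± 0.30). The keratin Krt20 had 1203, 1029 and 798 CPM and 170.5, 204 and 67.6 CPM (-2.78 ± 0.33). Sox9, a factor of regenerating tubule cells, had 102, 98.5 and 279 CPM and 9.82, 12.1 and 9.34 CPM (-3.94 ± 0.38; -3.26 without replicate 3 of the saline group). Havcr1, the gene of the tubular injury molecule KIM-1, had 1025, 971 and 104 CPM with saline and 585, 1350 and 375 CPM with the vesicles. Its groups overlapped, since replicate 3 of the saline group held the lowest of the 6 values, and the difference of 0.14 ± 0.76 was not called. In all 6 injured libraries Havcr1 exceeded sham, at 2.16, 2.23 and 2.23 CPM. Spp1, encoding osteopontin, was not called either, at 9026, 8190 and 6250 CPM and 4783, 9124 and 5422 CPM. It was called lower without replicate 2 of the vesicle group (-0.60). Vcam1, an adhesion molecule of tubule cells that fail to recover, had 10.9, 15.01 and 14.6 CPM and 10.1, 15.4 and 8.02 CPM and was not called.

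Of the lists with at least 10 tested members, the highest share of lower calls was among immediate early transcription factors, genes that respond to stimuli within minutes to hours: 32 of 33 were called lower and 0 higher (median -2.12). Fosl1 had 15.6, 19.8 and 18.2 CPM with saline and 1.56, 1.86 and 0.550 CPM with the vesicles (log2 fold change -3.73 ± 0.35, edgeR adjusted p = 5.27e-06). Klf6 had 456, 656 and 1025 CPM and 140.5, 166 and 138 CPM (-2.26 ± 0.24), and Atf3 had 25.4, 70.2 and 37.9 CPM and 10.5, 7.42 and 6.38 CPM (-2.45 ± 0.38). For these 3 factors the groups did not overlap, and the vesicle libraries remained above sham. Cebpd, a factor of the acute phase response, fell by 4.37. MAP kinase phosphatases and Sprouty-type feedback inhibitors were also mostly called lower, 17 of 20 lower and 1 higher (median -1.24). Dusp5, which inactivates ERK in the nucleus, had 19.7, 39.2 and 22.2 CPM and 4.22, 3.49 and 2.31 CPM (-3.0 ± 0.31). Errfi1, a feedback inhibitor of the EGF receptor, fell by 1.77. Dusp1, a phosphatase of p38 and JNK, had 246, 329 and 486 CPM with saline, 98.8, 56.7 and 166 CPM with the vesicles and 257, 312 and 262 CPM in sham (-1.72 ± 0.34), so its vesicle level lay below both other groups. Dusp6 had 53.1, 55.9 and 98 CPM and 62.3, 62.4 and 60.8 CPM and was not called.

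Genes of the pathways that PTP1B acts on were given from a list of 35 substrates and signalling partners. Of these 15 were called lower and 2 higher (median -0.30). Irs2, an adaptor of the insulin receptor, had 37.3, 59.2 and 64.6 CPM with saline, 9.91, 7.86 and 13.4 CPM with the vesicles and 21.7, 26.5 and 41.6 CPM in sham (log2 fold change -2.37 ± 0.28, edgeR adjusted p = 3.22e-05). All 3 vesicle libraries lay below all 6 others. Insr, the insulin receptor, had 68.6, 68.5 and 101 CPM and 62.4, 53.6 and 67.4 CPM, with an edgeR adjusted p = 0.0697 that misses the threshold; it was called lower without replicate 1 (-0.46) or 2 (-0.47) of the saline group. Stat3 had 416, 463 and 621 CPM and 205, 232 and 176 CPM (-1.29 ± 0.17), and its target and feedback inhibitor Socs3 had 69.5, 97.8 and 105 CPM and 29.3, 26.8 and 18.03 CPM (-1.87 ± 0.22). The kinase Src, which is activated by PTP1B in some cells, fell by 1.64. Jak2 fell by 0.61, whereas Egfr (-0.11), Met (0.06) and Irs1 (-0.14) were not called. Igfbp3, which binds insulin-like growth factors, fell by 3.15. Igfbp1, an insulin-repressed relative, had 7.52, 6.86 and 44.3 CPM and 5.41, 6.33 and 19.6 CPM and was not called; its log2 fold change of -0.91 turned to 0.53 without replicate 3 of the saline group. Among 24 protein tyrosine phosphatases 9 were called lower (37.5%) and 7 higher (29.2%), against 25.8% and 25.4% over all genes tested. Ptpn12 (-1.82 ± 0.22) and Ptpn23 (-1.58 ± 0.16) were on the lower side and Ptpn6 (1.48 ± 0.18), encoding SHP-1, on the higher. The estimate for Ptpn1 itself lay nearer to 0 than these, a difference between genes that was not tested.

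Inflammatory genes moved in both directions. Of 23 genes of the IL-6 family, STAT3 and the acute phase 9 were called lower and 3 higher, including Clcf1, an IL-6 family cytokine, at -2.32 ± 0.23 and the receptor Il6ra at -2.07 ± 0.24. Of 21 NF-kB subunits and feedback genes 9 were called lower and 0 higher. Rela, the p65 subunit, had 99.2, 148 and 149.9 CPM with saline and 49.4, 51.96 and 46.1 CPM with the vesicles (-1.43 ± 0.16). Among chemokines and cytokines 22 of 35 were tested, 7 lower (31.8%) and 4 higher (18.2%). Cxcl2, a neutrophil attractant, had 7.87, 29.1 and 15.8 CPM and 1.47, 1.64 and 1.54 CPM (-3.5 ± 0.47), while Cxcl12 rose from 31.1, 41.2 and 55.05 CPM to 238, 94.5 and 139 CPM (1.89 ± 0.30). Cxcl1 had 18.2, 35.3 and 212 CPM and 24.6, 26.2 and 28.9 CPM. Replicate 3 of the saline group set that difference, which was not called, and without it the log2 fold change was -0.01. Ccl2, a monocyte attractant, had 1.81, 3.26 and 2.47 CPM and 1.47, 1.09 and 1.21 CPM (log2 fold change -0.99 ± 0.35, edgeR adjusted p = 0.0322), a call that was lost without replicate 2 or 3 of the saline group or without any 1 vesicle library (-0.76 to -1.11).

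Of 29 interferon response genes 9 were called higher (31%), near the share over all genes tested, and 3 lower. Ifit3 had 10.03, 10.2 and 10.2 CPM with saline and 63.9, 38.97 and 34.4 CPM with the vesicles (log2 fold change 2.18 ± 0.23, edgeR adjusted p = 1.28e-05), overlapping the sham range of 56.6, 42.8 and 39.6 CPM. Complement genes were called higher for 9 of 19 (47.4%) and lower for 2. C3, the central component, had 22.7, 10.8 and 6.54 CPM with saline, 44.3, 130.5 and 73.5 CPM with the vesicles and 6.08, 7.07 and 4.78 CPM in sham (log2 fold change 2.63 ± 0.45, edgeR adjusted p = 0.000717; 3.26 without replicate 1 of the saline group). C4b had 1.81, 1.11 and 1.86 CPM and 3.58, 4.91 and 7.69 CPM (1.75 ± 0.34), with sham at 1.47, 1.95 and 1.73 CPM. For C3 and C4b all vesicle libraries lay above all 6 others. Genes of coagulation and fibrinolysis were called lower for 7 of 15 and higher for 1.

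Markers of other cell types moved with the groups too, and their part in the results above was not tested. The neutrophil list had 11 of 18 genes tested, most of which passed the filter on low counts through the saline group, so their direction was set by the filter and no count over them is given as support. Il1r2, a decoy receptor, had 11.1, 15.1 and 19.3 CPM with saline and 0.275, 0.109 and 0.330 CPM with the vesicles. S100a9, a calprotectin subunit, had 2.68, 5.15 and 3.54 CPM and 0.183, 0.109 and 0.220 CPM. The collagenase Mmp8 had 137 reads in the saline and 2 in the vesicle group. The defining granule genes Mpo and Elane were near 0 in both groups, with 2 and 6 reads in the saline group and 1 and 0 in the vesicle group. The list's summed level was 60.3, 101 and 97.4 CPM with saline, 6.42, 6.99 and 8.68 CPM with the vesicles, and 12.2, 8 and 9.14 CPM in sham.

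Of 22 tested monocyte and macrophage genes 9 were lower (40.9%) and 6 higher (27.3%). Some of them, such as Cx3cr1, had few reads with saline and passed the filter on low counts through other groups. The count is therefore not given as support, and under a stricter filter 4 genes of the list were called lower. Cd14, a co-receptor for lipopolysaccharide that tubule cells also express, had 320.5, 211 and 311 CPM and 40.2, 81.8 and 48.04 CPM (-2.31 ± 0.29). Cx3cr1, a chemokine receptor of resident macrophages, had 2, 2 and 1 reads with saline and 33, 16 and 22 reads with the vesicles. C1qa, a macrophage gene of complement, had 16.8, 19.1 and 11.4 CPM and 12.2, 8.73 and 13.6 CPM and was not called. Only 4 of 18 lymphocyte genes were tested, all 4 with higher levels in every sham library than in any saline library, and no count over them is given as support. Cd8a (2.65 ± 0.48) and Ighm (1.82 ± 0.34) were called higher, and Igkc was not called (-0.11 ± 0.60). Hba-a1, an alpha globin with a near-identical copy, had 40.02, 79.5 and 56.6 CPM with saline, 6.42, 12.99 and 14.5 CPM with the vesicles and 44, 36.2 and 33.5 CPM in sham (-2.38 ± 0.30). The vesicle libraries therefore held less globin RNA than both other groups. Ppbp, a platelet chemokine, had 5.79, 16.5 and 1.77 CPM and 0.459, 1.09 and 0.659 CPM (-3.44 ± 0.72; -2.36 without replicate 2 of the saline group). Endothelial genes were called lower for 7 of 21 and higher for 1, including the endothelial nitric oxide synthase Nos3 (-1.70 ± 0.25) and the VEGF receptor Flt1 (-1.53 ± 0.24), while Pecam1 was not called (-0.38 ± 0.22) except without replicate 1 of the vesicle group (-0.62). Ren1, encoding renin, had 231, 202 and 312 CPM with saline, 89.1, 101 and 81.3 CPM with the vesicles and 173, 194 and 125 CPM in sham (-1.46 ± 0.19), and its vesicle libraries lay below all 6 others.

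Genes of the citric acid cycle and of fatty acid oxidation were mostly called higher with the vesicles. Of 21 genes listed for the citric acid cycle 16 were called higher (76.2%) and 0 lower, with a median of 0.56. This list includes the cytosolic enzymes Idh1 and Aco1, which act outside the mitochondrial cycle. Idh1, the cytosolic isocitrate dehydrogenase, had 574, 371 and 322 CPM with saline, 1236, 1550 and 1462 CPM with the vesicles and 766, 837 and 786 CPM in sham (log2 fold change 1.74 ± 0.20, edgeR adjusted p = 2.09e-05). Idh3a, a subunit of the mitochondrial enzyme, had 160.3, 125 and 128 CPM and 356, 334 and 349 CPM (1.33 ± 0.14), with sham at 263, 260 and 284 CPM. For both, all vesicle libraries lay above all 6 others. In fatty acid oxidation 16 of 27 genes were called higher and 2 lower. Acox2, a peroxisomal oxidase, had 46.6, 28.6 and 40.6 CPM and 219, 191 and 241 CPM (2.49 ± 0.18), and Acadvl, which starts the oxidation of very long chains in mitochondria, had 419.7, 326 and 422 CPM and 600.4, 656 and 697 CPM (0.74 ± 0.15). Cpt1a, which admits fatty acids to mitochondria, went the other way, with 331, 293 and 356 CPM with saline, 201, 209 and 232 CPM with the vesicles and 269.7, 328 and 325 CPM in sham (-0.61 ± 0.14).

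Amino acid catabolism and creatine synthesis had 24 of 35 genes higher and 2 lower (median 0.95). Gatm, the first enzyme of creatine synthesis, had 106, 86.2 and 84.8 CPM with saline and 814, 566 and 1405 CPM with the vesicles (log2 fold change 3.33 ± 0.28, edgeR adjusted p = 2.64e-06). Bhmt2, a homocysteine methyltransferase, had 34.4, 33.8 and 56.7 CPM and 273, 181 and 251 CPM (2.5 ± 0.23). Gluconeogenesis and fructose metabolism had 10 of 13 higher and 0 lower, among them Glyctk, a glycerate kinase (3.19 ± 0.35), the fructose transporter Slc2a5 (1.99 ± 0.19) and the glucose-6-phosphate carrier Slc37a4 (1.53 ± 0.23). Pck1, the gatekeeper of gluconeogenesis, had 1517, 1024 and 2690 CPM and 2472, 1922 and 2017 CPM, was not called, and was called higher without replicate 3 of the saline group (0.75). Of 33 genes of xenobiotic metabolism 21 were called higher and 3 lower, 13 higher without replicate 2 of the saline group. Fmo1, a flavin monooxygenase, had 173, 147 and 237 CPM and 754, 602 and 864 CPM (2.0 ± 0.19). Aldh1a1, a retinaldehyde dehydrogenase, had 15.2, 12.2 and 9.63 CPM with saline, 45.9, 71.8 and 62.5 CPM with the vesicles and 9.99, 7.72 and 6.81 CPM in sham (2.28 ± 0.22), well above both other groups.

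Subunits of the respiratory chain are encoded in the nucleus and in the mitochondrion. Of 31 nuclear-encoded genes 8 were called higher (25.8%, near the share over all genes) and 4 lower. The higher count fell to 5 without replicate 1 of the saline group and to 3 without its replicate 2 or replicate 3 of the vesicle group. Ndufs1, a core subunit of complex I, had 176, 147 and 210.2 CPM and 345, 310.5 and 384 CPM (0.96 ± 0.17). Of 14 mitochondrially encoded genes 10 were called lower and 0 higher (median -0.79). These include the ribosomal RNAs mt-Rnr1 (-1.31) and mt-Rnr2 (-0.93), which are not subunits and were both called lower. The complex I subunit mt-Nd5 had 1829, 1943 and 2321 CPM with saline, 1035, 1084 and 1090 CPM with the vesicles and 1752, 1309 and 1437 CPM in sham (-0.93 ± 0.15), so its vesicle level lay below both other groups. In glycolysis 6 of 19 genes were higher (31.6%) and 4 lower (21.1%), near the shares over all genes tested. The phosphofructokinases Pfkl (1.61 ± 0.13) and Pfkm (1.73 ± 0.16) rose, and the glucose transporter Slc2a1 (-1.12 ± 0.17) and hexokinase Hk2 (-1.45 ± 0.34) fell.

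In cholesterol and fatty acid synthesis 13 of 29 genes were called higher (44.8%) and 1 lower. Sqle, squalene epoxidase, had 42.96, 30.02 and 27.5 CPM with saline, 156, 178 and 136 CPM with the vesicles and 56.7, 64.5 and 81.2 CPM in sham (log2 fold change 2.23 ± 0.20, edgeR adjusted p = 3.22e-06), with all vesicle libraries above all 6 others. Mvd, of the mevalonate pathway, had 30.9, 31.5 and 22.98 CPM and 176, 119.8 and 162 CPM (2.42 ± 0.21), and Hmgcs1, which makes HMG-CoA, had 119.7, 103 and 150.5 CPM and 492, 378 and 452 CPM (1.82 ± 0.20). The regulator Srebf2 was not called (-0.31).

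Chaperones of the endoplasmic reticulum, the compartment in which PTP1B resides, were higher: 21 of 30 were called higher (70%) and 2 lower, with a median of 0.59. Hspa5, the chaperone BiP, had 489, 539.5 and 511 CPM with saline, 1443, 1329 and 1205 CPM with the vesicles and 592, 668 and 728 CPM in sham (log2 fold change 1.37 ± 0.14, edgeR adjusted p = 9.20e-06). Sdf2l1, a BiP cofactor, had 20.8, 16.5 and 10.2 CPM with saline, 88.9, 92.3 and 99.2 CPM with the vesicles and 42.1, 50.5 and 44.7 CPM in sham (2.56 ± 0.21). Hsp90b1, the chaperone GRP94, had 267, 244 and 272 CPM with saline, 663, 664 and 686 CPM with the vesicles and 408, 398 and 422 CPM in sham (1.36 ± 0.12). For these 3 genes the vesicle libraries lay above all 6 others, and the difference from saline was larger than the spread within either group. Pdia4, a disulfide isomerase, rose by 1.88 ± 0.16 and calreticulin, Calr, by 1.40. Of the stress sensors and their early targets, Xbp1 (-0.06), Herpud1 (-0.07) and Ern1 (-0.34) were not called, and Atf6 fell by 0.40.

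The promoters of these chaperones were searched for the endoplasmic reticulum stress element, written as CCAAT and CCACG with 9 bases of any kind between them, on both strands from 250 bases before to 50 bases after the start of each gene in RefSeq annotation of the GRCm38.p6 build. Of the 26 list members with a promoter entry 9 held it (34.6%): Calr, Canx, Creld2, Derl3, Dnajc3, Hsp90b1, Hspa5, Pdia6 and Syvn1. Over all genes with an entry the share was 0.137%, or 37 of 27025. Of these 9 genes all but Syvn1 (-0.39) were called higher, beside 70% of the whole list. The promoters of Hsp90b1 (chr10:86705395-86705694, minus strand, 2 matches, one on each strand) and Hspa5 (chr2:34771840-34772139, plus strand, 1 match) are shown, with the matches in capitals. Both were chosen for having the smallest adjusted p among the called genes with a match.
Hsp90b1: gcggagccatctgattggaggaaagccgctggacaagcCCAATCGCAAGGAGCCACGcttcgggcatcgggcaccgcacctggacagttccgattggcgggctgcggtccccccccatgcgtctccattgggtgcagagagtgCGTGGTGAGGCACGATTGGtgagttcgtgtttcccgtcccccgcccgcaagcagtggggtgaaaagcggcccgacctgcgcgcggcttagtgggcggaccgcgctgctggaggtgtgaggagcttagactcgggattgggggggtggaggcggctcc
Hspa5: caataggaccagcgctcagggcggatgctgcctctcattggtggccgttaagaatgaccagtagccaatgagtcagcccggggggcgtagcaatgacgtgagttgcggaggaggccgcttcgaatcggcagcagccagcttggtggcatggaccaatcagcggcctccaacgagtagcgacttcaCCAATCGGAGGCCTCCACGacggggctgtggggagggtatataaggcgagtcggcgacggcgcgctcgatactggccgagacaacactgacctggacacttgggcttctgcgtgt
A match describes the letters of the window and is neither a shown binding site nor a cause of the level.

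Other stress programmes were mixed. Of 28 genes of the ATF4 integrated stress response 9 were called lower (32.1%) and 6 higher (21.4%), near the shares over all genes tested. Atf4 had 176, 305 and 351 CPM with saline and 104, 82.6 and 75.1 CPM with the vesicles (-1.67 ± 0.23), Ppp1r15a, the phosphatase subunit GADD34, fell by 2.01, and Ddit3, encoding CHOP, had 25.7, 30.9 and 33.5 CPM and 27.4, 35.3 and 29.9 CPM and was not called. Shmt2, a mitochondrial serine enzyme on the same list, rose by 1.93 ± 0.21. Translocation and transport genes of the endoplasmic reticulum were called higher for 16 of 41 (39%) and lower for 1, including the oligosaccharyltransferase subunits Ddost (0.97 ± 0.13) and Rpn2 (0.97 ± 0.14). Of 25 heat shock genes 10 were higher and 5 lower. Chordc1, an HSP90 co-chaperone, had 33.3, 36.3 and 40.6 CPM and 129, 139 and 112 CPM (1.79 ± 0.14), while the small heat shock protein Hspb1 had 219.6, 276 and 135 CPM and 29.2, 54.1 and 37.1 CPM (-2.39 ± 0.29). The call of Hspa1b (-1.73 ± 0.63) rested on replicate 2 of the saline group, at 52.0 CPM against 9.08 and 7.25 CPM, and was lost without it (-0.25), as it was without any 1 vesicle or sham library (-1.68 to -1.77).

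**Figure D5:**
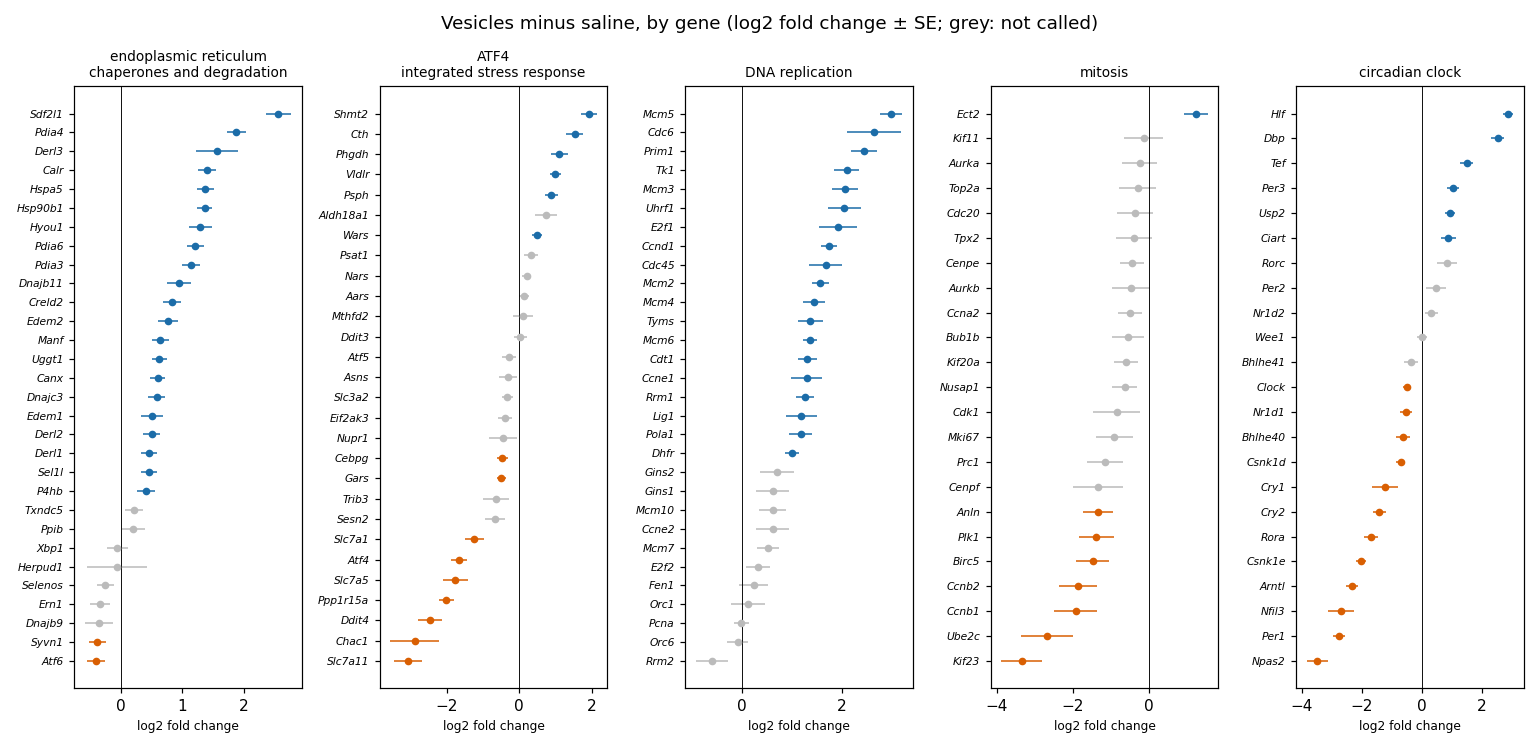
Log2 fold change ± SE, vesicle minus saline, of each tested member of 5 gene lists (chaperones and degradation of the endoplasmic reticulum, ATF4 response, DNA replication, mitosis, circadian clock); grey points were not called. Replication genes lie mostly to the right of 0 (19 of 30 called higher, 0 lower) and mitosis genes mostly to the left (7 of 23 called lower, 1 higher). The share of mitosis genes called lower, 30.4%, is near the 25.8% over all genes tested.

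Genes of DNA replication were higher with the vesicles, 19 of 30 called higher (63.3%) and 0 lower (median 1.29). Mcm5, a subunit of the replicative helicase, had 5.53, 5.23 and 5.48 CPM with saline, 37.99, 48.4 and 43.1 CPM with the vesicles and 14.3, 7.53 and 9.24 CPM in sham (log2 fold change 2.99 ± 0.23, edgeR adjusted p = 1.48e-06). Mcm6, of the same helicase, had 40.97, 32.2 and 41.4 CPM and 89.5, 100.2 and 105 CPM (1.36 ± 0.14), with sham at 47.5, 44.3 and 48.8 CPM. Prim1, the primase, had 6.74, 5.23 and 3.18 CPM and 24.4, 32.1 and 26.3 CPM (2.44 ± 0.26), with sham at 17.9, 12.8 and 11.99 CPM. In all 3 the vesicle libraries lay above all 6 others. Ccnd1, the cyclin of early G1, had 101, 136 and 108 CPM and 332, 383 and 448 CPM (1.76 ± 0.16). The loading factor Cdc6 rose by 2.65 and the transcription factor E2f1 by 1.94, whereas Pcna (-0.01) and Rrm2 (-0.60) were not called.

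Mitosis genes were called lower for 7 of 23 (30.4%, near the 25.8% over all genes tested) and higher for 1 (median -0.64). The lower count was 4 without replicate 1 of the saline group and 4 without replicate 1 of the vesicle group. Kif23, a kinesin of cytokinesis, had 20.4, 31.8 and 105 CPM with saline and 4.22, 5.57 and 5.83 CPM with the vesicles (-3.34 ± 0.54; -2.33 without replicate 3 of the saline group). Ccnb1, a mitotic cyclin, had 14.3, 3.26 and 3.36 CPM and 1.47, 2.40 and 1.65 CPM (-1.93 ± 0.57), with replicate 1 of the saline group far above its partners. Mki67, the proliferation antigen, had 10.2, 6.35 and 3.98 CPM and 2.57, 4.69 and 3.74 CPM and was not called. Cdkn1a, the cell cycle inhibitor p21, had 531, 562 and 819 CPM with saline, 36.1, 53.3 and 32.6 CPM with the vesicles and 13.6, 9.95 and 9.24 CPM in sham (log2 fold change -3.97 ± 0.24, edgeR adjusted p = 4.38e-07). Its vesicle libraries lay far below saline and above sham. Of 28 p53 targets and DNA damage genes 10 were lower and 5 higher, among them Plk3 (-2.93 ± 0.24) and Gadd45a (-1.99 ± 0.28) on the lower side. In the BCL2 family and necroptosis list 10 of 26 were lower and 2 higher: Mcl1, which protects from apoptosis, fell by 1.18 and Bid, which promotes it, rose by 1.30 ± 0.13.

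E2F sites, written TTTCGCGC or TTTGGCGC, were searched in the same promoter windows on both strands. They were present in 10 of 24 replication genes with an entry (41.7%) and in 0.929% of all genes with an entry. Of these 10 genes 7 were called higher, beside 63.3% of the whole list, and E2f2, Mcm7 and Orc1 were not called. The Mcm5 promoter (chr8:75109259-75109558, plus strand, GRCm38.p6) is shown because this gene had the smallest adjusted p of the called genes with a site. Its 2 overlapping matches, one on each strand, are in capitals.
Mcm5: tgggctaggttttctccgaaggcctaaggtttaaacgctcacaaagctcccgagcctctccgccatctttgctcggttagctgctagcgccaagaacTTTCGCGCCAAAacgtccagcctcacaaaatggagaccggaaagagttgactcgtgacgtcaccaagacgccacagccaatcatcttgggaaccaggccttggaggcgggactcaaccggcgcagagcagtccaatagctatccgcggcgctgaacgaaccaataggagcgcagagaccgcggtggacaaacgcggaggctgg

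Genes of the circadian clock moved in both directions. Of 23 genes 12 were called lower and 6 higher. The activators fell: Arntl, encoding BMAL1, had 26.7, 23.8 and 29.5 CPM with saline, 5.51, 5.57 and 4.95 CPM with the vesicles and 3.14, 2.33 and 2.13 CPM in sham (log2 fold change -2.32 ± 0.20, edgeR adjusted p = 2.83e-06). Npas2, a partner of BMAL1, had 18.8, 19.3 and 34.2 CPM and 1.38, 1.75 and 3.41 CPM (-3.48 ± 0.36). The output factors rose: Dbp had 2.94, 4.12 and 5.39 CPM with saline, 25.3, 20.5 and 25.8 CPM with the vesicles and 28.5, 33.8 and 34.1 CPM in sham (2.52 ± 0.22), and Hlf had 11.2, 10.3 and 14.8 CPM and 96.1, 77.9 and 92.9 CPM (2.88 ± 0.16). Nfil3, a repressor that competes with these factors, fell by 2.70. Among the period genes Per1 had 218, 294 and 296 CPM with saline, 45.7, 29.3 and 45.2 CPM with the vesicles and 85.2, 68.4 and 83.4 CPM in sham (-2.75 ± 0.20), below both other groups, while Per3 rose by 1.04 and Per2 (0.47) was not called. The time of day at which kidneys were taken is not in the labels and cannot be told apart from the treatment.

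The E-box, CACGTG, searched in the same windows and on both strands like the motifs that follow, was present in 5 of 18 clock gene promoters (27.8%) and in 8.09% of genes with an entry. The D-box, TTATGNAA, was present in 2 of the 18, Per1 and Per3 (11.1%), and in 3.99% of genes. Outside the clock, the cyclic AMP response element, TGACGTCA, was present in 2 of 25 immediate early genes, Btg2 and Maff (8%), and in 2.03% of genes, and the sterol regulatory element, TCACNCCAC, in 1 of 19 cholesterol and fatty acid synthesis genes, Hmgcs1 (5.3%), and in 1.44% of genes. The Per1 promoter (chr11:69098699-69098998, plus strand, GRCm38.p6) is shown with its E-box in capitals. Per1 had the smallest adjusted p of the called clock genes with an E-box, and it is also a target of glucocorticoids. Its D-box does not overlap the E-box.
Per1: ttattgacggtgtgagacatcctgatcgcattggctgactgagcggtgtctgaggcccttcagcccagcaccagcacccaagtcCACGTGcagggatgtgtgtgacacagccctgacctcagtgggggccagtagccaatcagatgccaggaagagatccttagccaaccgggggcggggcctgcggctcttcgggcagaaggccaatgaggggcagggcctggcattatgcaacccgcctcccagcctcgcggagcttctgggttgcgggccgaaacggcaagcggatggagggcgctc

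Glucocorticoid response genes were called lower for 16 of 20 and higher for 1 (median -1.84). Fkbp5, a co-chaperone of the receptor, had 247, 229.7 and 394 CPM with saline, 74.7, 75.2 and 60.9 CPM with the vesicles and 71.7, 60.1 and 71.5 CPM in sham (-2.04 ± 0.20). The metallothioneins Mt1 (-2.87 ± 0.21) and Mt2 (-3.13 ± 0.25), which bind zinc and belong to a family of close copies, also fell. Cirbp, a cold-inducible RNA-binding protein, had 353, 479 and 401 CPM with saline, 51.6, 43.3 and 55.1 CPM with the vesicles and 80.2, 92.8 and 85.95 CPM in sham (log2 fold change -3.04 ± 0.16, edgeR adjusted p = 2.14e-07). Rbm3, its relative, had 264, 320.2 and 277 CPM and 94.2, 103 and 88.4 CPM (-1.59 ± 0.14), with sham at 78.98, 65.4 and 74.2 CPM. The list of cold-inducible and splicing genes that holds both had 7 of 18 lower and 1 higher. Nuclear and snoRNA-host non-coding RNAs were called lower for 10 of 14 and higher for 0 (median -1.44), including Snhg15 (-1.37 ± 0.19) and Gas5 (-0.90 ± 0.13).

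For genes of the ribosome the counts of lower calls changed with single libraries. Ribosomal proteins were called lower for 12 of 36 (33.3%, against 25.8% over all genes tested) and higher for 0 (median -0.36). The lower count was 6 without replicate 2 and 21 without replicate 3 of the saline group, and 4 and 7 without replicates 1 and 3 of the vesicle group. Rps27a had 57.7, 72.99 and 52.2 CPM and 27.2, 40.4 and 30.7 CPM (-0.90 ± 0.18). Ribosome biogenesis had 11 of 30 lower (36.7%) and 5 higher, with 7 lower without replicate 3 of the vesicle group. Fbl, the methyltransferase fibrillarin, fell by 1.15 and Nop2, another RNA methyltransferase, rose by 0.69 ± 0.12. Proteasome genes were mostly not called, 4 of 35 higher and 2 lower. The higher count was 2 with library totals, 2 without replicate 2 of the saline group and 2 without replicate 2 of the vesicle group.

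Antioxidant and hypoxia genes were divided. Of 30 genes of NRF2, glutathione and ferroptosis 11 were lower (36.7%) and 7 higher (23.3%), against 25.8% and 25.4% over all genes tested. Hmox1, heme oxygenase 1, had 184, 196 and 316 CPM with saline and 99.8, 127 and 88.9 CPM with the vesicles (-1.14 ± 0.22), and Slc7a11, the cystine transporter, had 7.09, 11.2 and 5.92 CPM and 1.38, 0.983 and 0.440 CPM (-3.07 ± 0.38). Slc40a1, the iron exporter ferroportin, had 72.1, 66.8 and 69.01 CPM with saline, 153, 207 and 166 CPM with the vesicles and 77.3, 84.5 and 82.1 CPM in sham (1.34 ± 0.14). Its vesicle libraries lay above all 6 others. Of 29 targets of hypoxia inducible factors 10 were lower (34.5%) and 5 higher (17.2%), and 5 were lower without replicate 3 of the vesicle group. Ddit4, an inhibitor of mTOR, had 76.9, 84.8 and 203 CPM and 25.3, 19.8 and 21.3 CPM (-2.45 ± 0.33; -1.86 without replicate 3 of the saline group), whereas P4ha1, a collagen prolyl hydroxylase, rose by 1.71 ± 0.15. Of 28 lysosome and autophagy genes 9 were called higher (32.1%) and 8 lower (28.6%), near the shares over all genes tested. The enzymes Neu1 (1.32 ± 0.15) and Glb1 (1.49 ± 0.19) rose and the autophagy kinase Ulk1 (-1.25 ± 0.19) fell.

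Matrix and junction genes were more often called lower than higher. Of 29 extracellular matrix genes 15 were called lower (51.7%) and 3 higher (median -0.63). The list's summed level overlapped between the groups, at 4170, 4370 and 4630 CPM with saline and 4570, 4300 and 4690 CPM with the vesicles. Lama5, a laminin of basement membranes, had 272, 279 and 315 CPM with saline and 121, 101 and 103 CPM with the vesicles (log2 fold change -1.41 ± 0.13, edgeR adjusted p = 4.19e-06), and Mmp14, a membrane-bound metalloproteinase, had 41.1, 38.7 and 38.2 CPM and 10.3, 10.8 and 6.92 CPM (-2.07 ± 0.21). Col1a1, the fibrillar collagen of scar tissue, was higher, at 54.02, 30.6 and 17.8 CPM and 136, 60.6 and 75.5 CPM (1.41 ± 0.39), a call that was lost without replicate 1 of the vesicle group (1.01). Of 20 claudins and junction genes 11 were lower and 4 higher. Cldn4 had 869.8, 1283 and 1397 CPM and 276, 268 and 185 CPM (-2.28 ± 0.21), Cldn3 fell by 1.87, and Cldn2, the paracellular water and sodium channel of the proximal tubule, had 368, 225 and 235 CPM with saline, 914, 987 and 973 CPM with the vesicles and 558, 654 and 643 CPM in sham (1.80 ± 0.18). All 3 vesicle libraries exceeded all 6 others for Cldn2.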

How the data were processed

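RNA of 9 kidney libraries, made from 100 ng of total RNA each with a Tn5-based kit per the labels' protocols, was counted per gene. The values are whole-number counts as the authors deposited them, made with STAR and HTSeq per the submitters' processing notes (versions not given in the sources used here). These notes list a human build, GRCh38.p14, although each of the 56923 gene identifiers is a mouse Ensembl one, and the build of the counting was not settled. The strand setting is not given in the sources used here. Symbols were found for 52073 identifiers, and 0 columns were left unmapped. Library totals lay between 9467851 and 11389479 counts; no libraries were duplicates of each other.

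In R 4.3.3 with edgeR 4.0.16, 17036 genes passed filterByExpr. After TMM scaling, glmQLFit (robust) modelled a mean per group over all 9 libraries (6 residual degrees of freedom); limma 3.58.1 and DESeq2 1.42.0 served as alternatives. Calls used glmQLFTest and a Benjamini-Hochberg adjusted p under 0.05 over all genes. On simulated data (3 runs, 200 of 17036 genes changed, made for the vesicle and saline groups) 55.9% of 2-fold and 93.6% of 4-fold changes were recovered, and 6.97% of the calls were false. The real comparison called many more genes than the simulation changed, so these shares need not hold for it.

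The 61 gene lists (1348 of 1352 names matched) and the other choices were made with earlier results of these data known, and list counts are descriptions without a test. Named genes were a fixed panel of 44, the 8 largest rises and falls, and the 6 largest gains and losses in mean CPM. Up to 4 members of each list with the smallest adjusted p were named as well. The rises and falls were ranked among called genes without overlap between the groups, at a mean log2 CPM of 3 or more. Gene models named Gm or Rik and genes without a symbol were left out of that ranking. Other list members in the text were chosen after their values were seen. Some genes that the rule named are not reported here. Promoters were searched for 6 motifs in a table of 32851 RefSeq promoters (GRCm38.p6). Python 3.11.15 with matplotlib 3.10.9 drew the figures. The replicate numbers of the groups come from titles that name no shared animal or day, so the numbers were not used for pairing.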

Additional observations from a re-analysis of the deposited data

How the results depend on the processing

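Under 17 other settings and 1 chosen after seeing the data, which corrected for GC content and length, between 6177 and 9563 genes were called, and 0 genes called with the chosen settings were called in the opposite direction. Between 68.1% (stricter filter) and 99.7% of the calls were shared. Scaled by library totals alone, 3757 genes were higher and 5048 lower, and the median of all genes shifted by -0.11 on the log2 scale. Of the named genes 0 that were called changed sign, and at most 10 lost their call under 1 alternative; the stricter filter left out 31 of 285. Of the 20 named genes not called, 9 changed sign under at least 1 setting, Igfbp1 among them (0.53 without replicate 3 of the saline group). Fold changes of genes with few reads are limited by depth.

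The stricter filter, at least 10 CPM in at least 3 libraries, tested fewer genes and left 4 monocyte and macrophage, 2 neutrophil, 2 chemokine and cytokine, 4 coagulation, 6 nuclear and snoRNA-host RNA and 1 mitosis gene called lower. The GC and length correction left 4 nuclear-encoded oxidative phosphorylation genes higher; the cause was not tested. With each library left out in turn, lower calls ranged from 5 to 11 for hypoxia inducible factor targets, 4 to 10 for mitosis, 7 to 10 for ribosome biogenesis and 4 to 21 for ribosomal proteins, and higher calls from 3 to 11 for oxidative phosphorylation and 13 to 23 for xenobiotic metabolism.

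Same-numbered libraries of the injured groups had deviations correlated at -0.19, 0.07 and 0.04. Between libraries of different number these correlations ranged from -0.17 to 0.15. With 3 libraries a group such values cannot show whether same-numbered libraries share a batch or day. With a replicate block 4276 genes were called higher and 4215 lower.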
